A study of Mus musculus with 12 samples.

Results

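The secreted frizzled-related proteins are a family of 5 mouse genes, Sfrp1, Sfrp2, Frzb (also called Sfrp3), Sfrp4 and Sfrp5. They were picked by family membership from the 25887 genes of the deposited tables, after the Ensembl identifiers had been matched to mouse symbols, and all 5 were found and measured. RNA was sequenced from mouse dermal papilla cells, a cluster of mesenchyme that the hair bulb encloses, after sorting by flow cytometry. The question behind the study was how these cells differ when Smo, the membrane protein that passes on the Hedgehog signal, is made constantly active. There were 4 groups of 3 libraries. Smo* mice, which carry the gain-of-function form of Smo, were sampled at postnatal day 28 (P28) as males in anagen I-III, the early growth stages of the hair cycle. Wild-type (WT) mice were sampled at P28 as males in Anagen VI, the full growth stage. Smo* and WT mice were sampled at postnatal day 20 (P20) as females in telogen, the resting stage. The series title calls the Smo* form specific to the dermal papilla, while the promoter or Cre line that drives it, the sorting marker and any pooling of animals are not given in the sources used here. Genotype and stage thus differ together at P28, and age, stage and sex differ together between P28 and P20, so that these factors cannot be told apart. Whether each library comes from its own animal is not stated, so a p-value here speaks only of the scatter among these libraries, part or all of which may be technical.

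Sfrp proteins pair a cysteine-rich domain like the Wnt-binding part of the Frizzled receptors with a netrin-like domain, and they are secreted into the space around the cell. There they bind Wnt proteins, and some of them bind Frizzled receptors, so that they mostly act as inhibitors of Wnt signalling and can also carry or modulate Wnts. By sequence, Sfrp1, Sfrp2 and Sfrp5 form one branch of the family, and Frzb and Sfrp4 form another. Wnt signalling through beta-catenin in the dermal papilla and in the epithelium above it is needed for hair growth.

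On the GRCm38 build with GENCODE M21 annotation, Sfrp1 (ENSMUSG00000031548) lies on chromosome 8 from 23411502 to 23449632 on the + strand, with 4372 exonic bases. Sfrp2 (ENSMUSG00000027996) lies on chromosome 3 from 83766321 to 83774316 on the + strand, with 2153 exonic bases. An antisense gene, Gm26771, covers 464 of these exonic bases and was not analysed here, and since it is not known whether counting used the strand, the values of Sfrp2 may include its reads. Frzb (ENSMUSG00000027004) lies on chromosome 2 from 80411970 to 80447625 on the - strand, with 3237 exonic bases. Sfrp4 (ENSMUSG00000021319) lies on chromosome 13 from 19623104 to 19632994 on the + strand, with 4179 exonic bases. Sfrp5 (ENSMUSG00000018822) lies on chromosome 19 from 42197971 to 42202252 on the - strand, with 1900 exonic bases.

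Promoter sequence from RefSeq on GRCm38.p6 was matched for 3 of the 5 members, and the 250 bases before each RefSeq start site were searched. That start site is the 5′ end of the GENCODE gene for Sfrp2 and Sfrp5, whereas for Frzb it is base 80447396, which lies 229 bases inside the GENCODE gene, so that most of the Frzb window, and the match printed, are within the GENCODE gene model. The sequences are shown because the members took different courses: in Smo* cells Sfrp2 was called lower and Sfrp5 higher at P28, and Frzb was called higher at P20. Each is written 5′ to 3′ along the gene's own strand, and capitals mark a match to a searched motif. Sfrp2 is given as chr3:83766071-83766320 on the + strand, Sfrp5 as chr19:42202253-42202502 on the - strand, and Frzb as the 30 bases around its TCF/LEF-type match, chr2:80447474-80447503 on the - strand.
Sfrp2: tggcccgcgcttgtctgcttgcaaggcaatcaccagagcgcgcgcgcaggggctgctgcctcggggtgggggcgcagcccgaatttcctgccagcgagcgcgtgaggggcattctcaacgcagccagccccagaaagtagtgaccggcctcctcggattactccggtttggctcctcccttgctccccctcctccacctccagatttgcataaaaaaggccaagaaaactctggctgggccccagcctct
Frzb: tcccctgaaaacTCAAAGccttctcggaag
Sfrp5: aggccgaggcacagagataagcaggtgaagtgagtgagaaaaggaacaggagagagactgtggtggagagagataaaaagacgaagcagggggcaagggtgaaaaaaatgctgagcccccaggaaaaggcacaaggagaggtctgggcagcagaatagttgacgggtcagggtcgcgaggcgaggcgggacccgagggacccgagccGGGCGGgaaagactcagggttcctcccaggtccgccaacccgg

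The motifs were searched on both strands as CTTTGA (the TCF/LEF core), GACCNCCCA (the Gli core), GGGCGG (the GC box), CCAAT and TATAAA. The window of Frzb held the TCF/LEF core on the reverse strand, starting 95 bases before the RefSeq start site, and 13.8% of all 32851 promoters hold that core in the same length. A GC box, held by 32.7% of promoters, started 51 bases before the RefSeq start of Frzb and 43 bases before that of Sfrp5. The CCAAT and TATAAA letters, held by 33.8% and 12.4% of promoters, and the Gli core, held by 0.868%, were not found in these 3 windows. The window of Sfrp2 matched none of the motifs. All 3 windows were richer in G and C than the median promoter of 52.4%, at 63.6% in Sfrp2, 64.4% in Frzb and 59.6% in Sfrp5. A match of letters is a description only.

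The libraries held 36323058 to 48926831 reads on genes. P28 Smo* replicate 3 stood apart, with 15453 genes with a read against 17337 to 17926 in the other libraries, and with Spearman correlations across genes of 0.962 and 0.959 with its replicates, against 0.976 or more for every other pair within a group. All 14 dermal papilla markers on the list were measured, none of them at 0 in all libraries. Their summed level ran from 57229 to 441431 normalized counts per library, against 268 to 1336 for 9 keratinocyte markers and 101 to 1053 for 7 immune markers. The 11 dermal fibroblast markers summed higher than papilla markers in every P20 library. In P20 Smo* cells the ranges were 263571 to 276469 against 93318 to 117824. The P20 WT ranges were 330711 to 367200 against 78085 to 94681. Fibroblast markers also summed higher in all P28 Smo* libraries and P28 WT replicate 1, and lower in P28 WT replicates 2 and 3. Such sums depend on the genes listed, and the purity of the sorted cells was not tested. Smo lay at 7487 to 8694 normalized counts in P28 Smo* cells and at 5418 to 6144 in P28 WT cells, and at 6351 to 7528 in P20 Smo* cells and 5037 to 5225 in P20 WT cells. The Smo values did not pass the test at either age (log2 fold changes 0.46 and 0.47, limma adjusted p = 0.0502 and 0.111). Of 16 alternatives, 7 called Smo higher in Smo* cells at P28 and 2 at P20. DESeq2 on the recovered reads called it at both ages (adjusted p = 0.00595 at P28 and 0.0121 at P20). So did the authors' deposited table (adjusted p = 0.000994 and 0.00325). Transcripts of the added and the native form were not told apart. Of 5 Hedgehog genes checked, Smo included, 3 were called higher in Smo* cells at P28 and 4 at P20, and none lower. Of all genes tested, 4.05% were called higher at P28 and 0.485% at P20. Gli1 and Ptch1, targets and parts of the Hedgehog pathway, were called higher in Smo* cells at both ages (log2 fold changes 1.52 and 1.51 at P28, 1.63 and 2.87 at P20). With 1 library left out, the call of Gli1 ended in 5 of 6 fits at P20 (highest limma adjusted p = 0.144), and that of Ptch1 in 3 of 6 at P28 (highest adjusted p = 0.0653) and 2 of 6 at P20 (highest adjusted p = 0.0763). Hhip, a Hedgehog target that binds the ligand, was called higher at P20 (log2 fold change 3.53) but not at P28, where it lay at 33486, 49363 and 8915 normalized counts in Smo* libraries, against 36605 to 42843 in WT libraries (-0.73, limma adjusted p = 0.430). Without P28 Smo* replicate 3 its value at P28 was 0.00239. With all 12 libraries the difference of its log2 fold change between ages was called (-4.26, limma adjusted p = 0.00359). That difference was also called without P28 Smo* replicate 3 (-3.53, limma adjusted p = 8.23e-05).

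**Figure D1:**
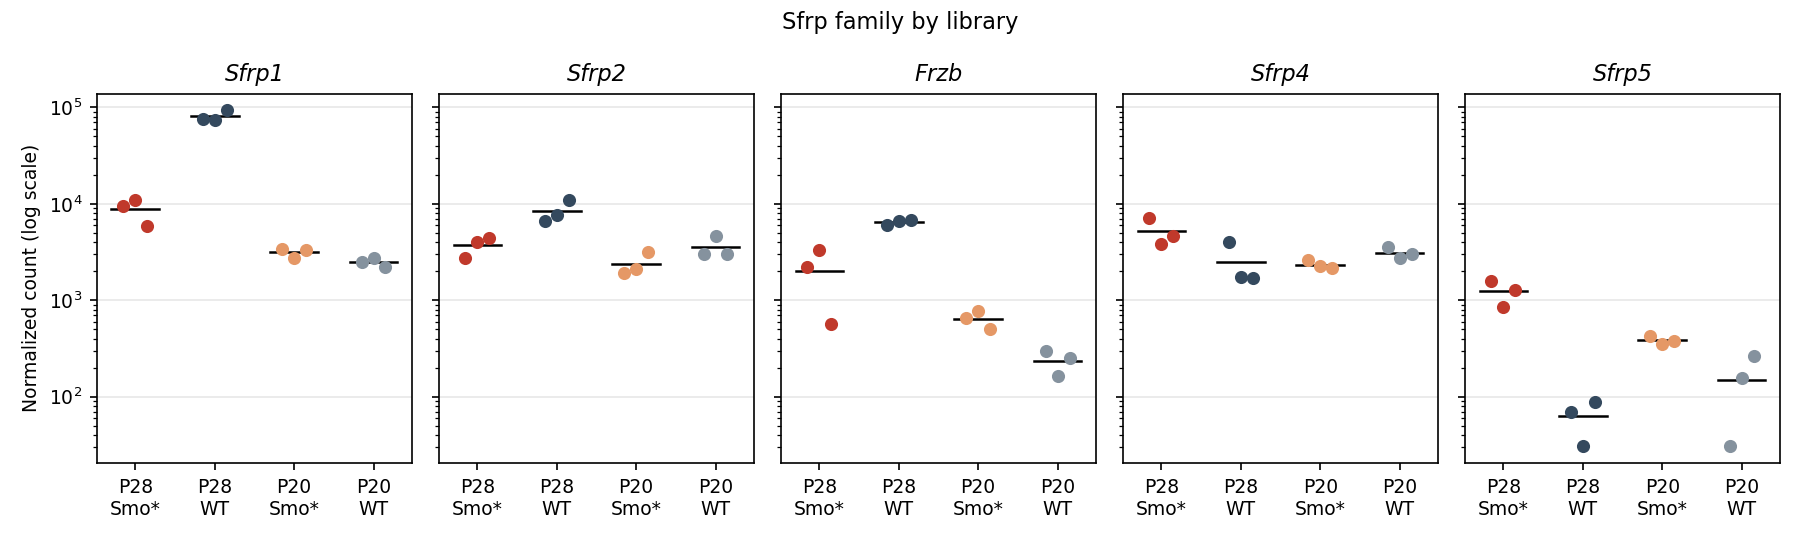
Normalized read count of each Sfrp gene on a log axis, 1 point per library and a bar at the mean of the 3 libraries, for P28 Smo*, P28 WT, P20 Smo* and P20 WT. Sfrp1 stands at 74094 or more in the P28 WT libraries and at or below 10925 in every other library, while Sfrp5 is highest in P28 Smo* and lowest on average in P28 WT.

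At P28 the members took opposite directions in Smo* cells: Sfrp1 and Sfrp2 were lower, and Sfrp5 was higher, than in WT cells. Of the 5 members, 1 was called higher and 2 were called lower by limma after Benjamini-Hochberg adjustment over all genes tested at a threshold of 0.05. The same test called 8.90% of the 14757 genes tested, 4.05% higher and 4.85% lower. For 4 members, the libraries of the groups did not overlap, which held for 33.4% of the genes tested. Values are read counts normalized by the authors to 1 scale for all libraries.

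Sfrp1, an inhibitor that binds Wnts and also blocks the sheddase ADAM10, had 9388, 10925 and 5938 normalized counts in P28 Smo* libraries, against 76159.7, 74094 and 93334 in P28 WT libraries. Every Smo* library lay far below every WT library, with no overlap. The log2 fold change of Smo* over WT was -3.25 (SE 0.24, limma adjusted p = 0.000281), the 138th lowest of 14757 genes, and the ratio of WT to Smo* means was 9.28.

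Sfrp5, known in mice as an inhibitor of Wnt5a that fat cells secrete, went the other way. It had 1596, 842 and 1290 normalized counts in P28 Smo* libraries, against 69.1, 30.9 and 87.5 in P28 WT libraries, which rest on 26 to 95 reads per library. All 3 Smo* libraries lay well above the WT libraries. The mean was 19.9 times as high in Smo* as in WT cells, and the log2 fold change was 4.37 (SE 0.40, limma adjusted p = 0.000697). The size was smaller in the authors' deposited table, where Smo* over WT was 2.82 (adjusted p = 4.74e-09).

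Sfrp2, the remaining member of the branch with Sfrp1 and Sfrp5, has been linked to procollagen processing as well as to Wnt binding. It had 2747, 4046 and 4405 normalized counts in P28 Smo* libraries, against 6704, 7663 and 11011 in P28 WT libraries. The groups did not overlap, and the log2 fold change was -1.18 (SE 0.23, limma adjusted p = 0.0200). The call ended without P28 WT replicate 2 (-1.23, limma adjusted p = 0.0694) and without P28 WT replicate 3 (-0.97, limma adjusted p = 0.0662). Over all genes, those fits called 472 and 461, against 1313 with all libraries. Sfrp2 was called in 4 of 6 fits with 1 library left out and in all 10 other alternatives. Among these was the authors' deposited table, where Smo* over WT was -1.09 (adjusted p = 0.000213).

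Frzb, the Wnt inhibitor first found in cartilage, had 2238, 3287 and 562 normalized counts in P28 Smo* libraries, against 5976, 6595 and 6747 in P28 WT libraries. The WT libraries lay close together above all Smo* libraries, among which replicate 3 was far below the others. The log2 fold change was -2.0 (SE 0.55) and did not pass the test (limma adjusted p = 0.0637). Without Smo* replicate 3 it was smaller in size and passed, at -1.25 (SE 0.17, limma adjusted p = 0.00328). It also passed without Smo* replicate 2, at -2.52 (limma adjusted p = 0.0248), and with limma on all 12 libraries (adjusted p = 0.0171). The authors' deposited table called it too, where Smo* over WT was -1.32 (adjusted p = 0.00879). Frzb was called in these 4 of 16 alternatives and not in the other 12, among them edgeR and DESeq2 on the recovered reads.

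Sfrp4, the other member of that branch, is known for its role in bone, where loss of the human gene causes Pyle disease. It had 7198, 3870.3 and 4659 normalized counts in P28 Smo* libraries, against 4056, 1747 and 1721 in P28 WT libraries. The groups overlapped, because WT replicate 1 lay above Smo* replicate 2. The log2 fold change of 1.14 (SE 0.36) did not pass the test (limma adjusted p = 0.0914). Without WT replicate 1 it was 1.55 and passed (limma adjusted p = 0.0211). It also passed with limma on all 12 libraries (adjusted p = 0.0257) and with DESeq2 on the recovered reads (adjusted p = 0.0194). The authors' deposited table called it too, where Smo* over WT was 0.95 (adjusted p = 0.00668). Sfrp4 was called in these 4 of 16 alternatives and not in the other 12, among them edgeR on the recovered reads.

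Scaled by exonic length, the family as a whole summed to 6270.4 ± 779.8 normalized counts per kb in P28 Smo* cells and to 25123 ± 3368 in P28 WT cells (SD, n = 3 each). Most of this difference lay in Sfrp1: without it the other members summed to 4269 ± 258 per kb in P28 Smo* cells and 6552 ± 958 in P28 WT cells. Sfrp1 made up 31.5% ± 5.86 of the family's per-kb level in P28 Smo* cells and 73.9% ± 0.473 in P28 WT cells. Sfrp4 made up 20.1% ± 6.08 in P28 Smo* cells and 2.46% ± 1.47 in P28 WT cells, and Sfrp5 made up 10.6% ± 3.50 in P28 Smo* cells and 0.128% ± 0.0499 in P28 WT cells. The share of Sfrp2 was 28.3% ± 9.50 in P28 Smo* cells and 15.5% ± 2.16 in P28 WT cells, and that of Frzb was 9.53% ± 5.94 in P28 Smo* cells and 7.98% ± 0.844 in P28 WT cells. Per kb, Sfrp1 was 2.0 to 5.64 times as high as Sfrp5 in P28 Smo* libraries and 464 to 1043 times as high in P28 WT libraries. These shares are descriptions and were not tested.

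**Figure D2:**
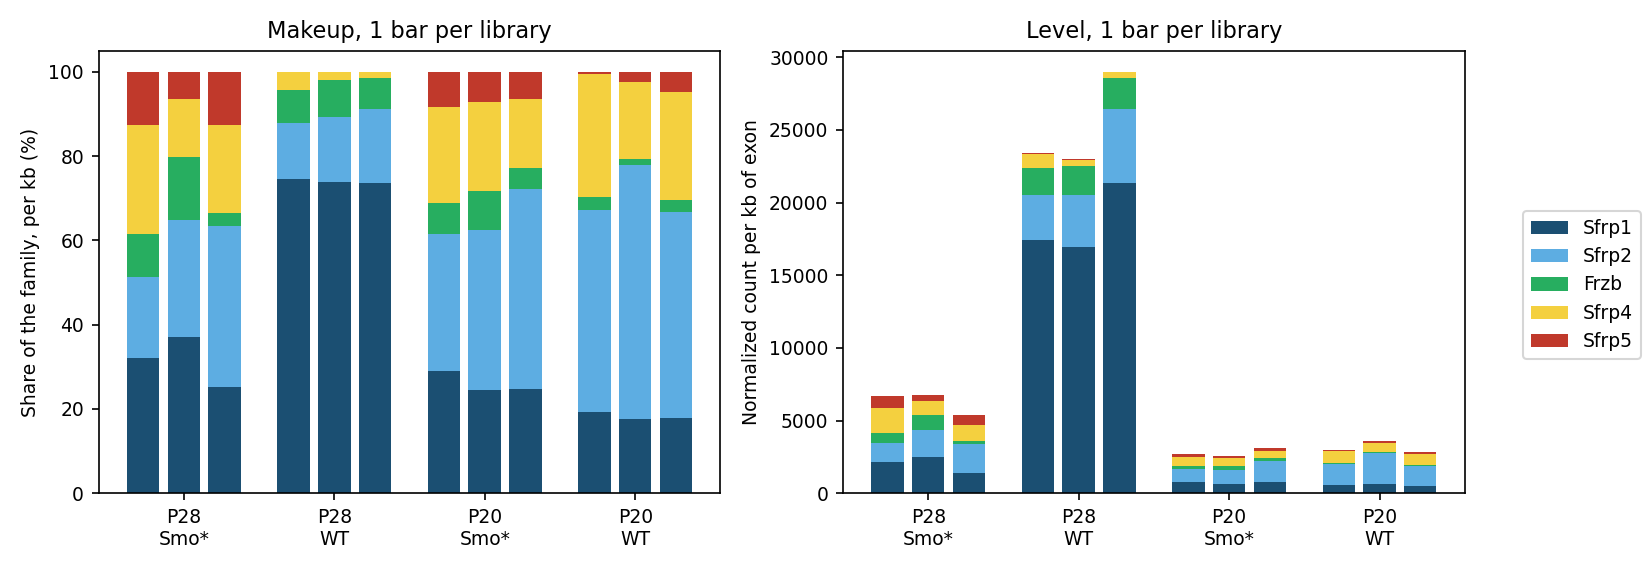
Makeup of the family (left, percent of the summed per-kb level) and its level (right, normalized count per kb of exon), 1 bar per library, stacked by gene, for P28 Smo*, P28 WT, P20 Smo* and P20 WT. The P28 WT bars are mostly Sfrp1 (73.6% to 74.5%) and sum to 22978 per kb or more, while no other library sums to more than 6763 per kb.

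Markers of several cell types moved with these values at P28. The summed level of the 14 dermal papilla markers was 179546, 264540 and 57229 in Smo* replicates 1, 2 and 3, against 344375 to 441431 in WT libraries, so that Smo* replicate 3 was lowest for the marker sum, Sfrp1 and Frzb alike. Of these 14 markers, 1 was called higher and 4 lower, where 4.05% of all genes tested were called higher and 4.85% lower. The 11 dermal fibroblast markers summed to 299271 to 380987 in Smo* libraries, against 348352, 240172 and 187688 in WT replicates 1, 2 and 3, and WT replicate 1 was also the highest WT library for Sfrp4. The 7 endothelial markers summed to 3479 to 5985 in Smo* libraries and to 1694 to 3260 in WT libraries, and 3 were called higher, with log2 fold changes of 4.37 for Cdh5, 1.93 for Vwf and 1.53 for Pecam1. The Pecam1 call ended without P28 WT replicate 1 or 2 (limma adjusted p = 0.0507 and 0.0646). The 9 keratinocyte markers summed to 268 to 467 in Smo* libraries and to 820 to 1063 in WT libraries, without overlap, and all 9 had log2 fold changes below 0 (median -1.40). Limma and edgeR called none of them and DESeq2 called 1, while 4 had an unadjusted limma p under 0.05. The 5 adipocyte markers summed to 797, 362 and 5117 in Smo* replicates 1, 2 and 3, against 416 to 475 in WT libraries, while Sfrp5 was highest in Smo* replicate 1. Of the 4 adipocyte markers tested all had log2 fold changes above 0 (median 3.05), limma and edgeR called none, DESeq2 called 1, and 3 had an unadjusted limma p under 0.05. The part of these cell types in the Sfrp differences was not tested. In bulk samples such as these, fewer cells of a type and less RNA per cell cannot be told apart.

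At P20, in telogen, Frzb was the only member to pass the test. It was called higher in Smo* cells, as 1 of 5 members, where 0.696% of the 14645 genes tested were called, 0.485% higher and 0.212% lower. Frzb had 649.6, 770.1 and 499 normalized counts in P20 Smo* libraries, against 295, 165 and 249.6 in P20 WT libraries. The groups did not overlap, and the log2 fold change was 1.45 (SE 0.25, limma adjusted p = 0.0485). The call is close to the threshold: it ended in 5 of 6 fits with 1 library left out (without Smo* replicate 1 or 2 and without any WT library), where the fold change lay between 1.21 and 1.63 over all 6, and in the authors' deposited table (Smo* over WT 0.98, adjusted p = 0.271).

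Sfrp5 had 428, 349 and 379 normalized counts in P20 Smo* libraries, against 30.5, 156 and 262 in P20 WT libraries. The Smo* libraries all lay above the WT libraries, which were spread widely, and the log2 fold change of 1.82 (SE 0.66) did not pass the test (limma adjusted p = 0.343). Without WT replicate 1 it was 0.92. The P20 WT libraries stood in the order of Sfrp5, replicate 1 lowest and replicate 3 highest, in the summed markers of 5 of 12 cell types. These were 346, 668 and 1336 normalized counts for keratinocytes, 11118, 15340 and 26544 for dermal sheath and smooth muscle, and 253, 927 and 964 for adipocytes, besides those of endothelium and skeletal muscle. Lists can share an order of 3 libraries by chance. In P20 Smo* libraries the sums were 290 to 492 for keratinocytes, 10887 to 18696 for dermal sheath and smooth muscle, and 382 to 2446 for adipocytes. Unlike Sfrp5, all of these overlapped the WT sums. Those of the 11 dermal fibroblast markers did not, at 263571 to 276469 in P20 Smo* libraries and 330711 to 367200 in P20 WT libraries. Of the 11, 1 had a log2 fold change above 0. Limma called 1 lower, Dpt (-0.80, adjusted p = 0.0184), and that call held in 3 of 6 fits with 1 library left out. Of the endothelial genes, Cdh5 averaged 685 ± 168 in P20 Smo* cells and 230.2 ± 182 in P20 WT cells, and Pecam1, opposite to Sfrp5, averaged 104 ± 59.9 in P20 Smo* cells and 308 ± 284 in P20 WT cells (SD, n = 3 each). The 7 endothelial markers, none of them at 0 in all libraries, summed to 2664 to 2935 in P20 Smo* libraries and to 1583 to 3053 in P20 WT libraries. Limma and edgeR called none of them and DESeq2 called 1, while 3 lay under 0.05 by limma's unadjusted p. The part of such cells in the Sfrp5 values was not tested.

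The other members had small differences at P20 that did not pass the test. Sfrp1 had 3441, 2764 and 3356 normalized counts in P20 Smo* libraries, against 2471, 2756 and 2201 in P20 WT libraries, so that the groups were apart by a narrow gap (log2 fold change 0.36, SE 0.13, limma adjusted p = 0.338). Sfrp4 had 2599.6, 2278 and 2137 in P20 Smo* libraries, against 3595, 2746 and 3029 in P20 WT libraries (log2 fold change -0.41, SE 0.13, limma adjusted p = 0.269). Sfrp2 had 1905, 2092 and 3159.6 in P20 Smo* libraries, against 3038, 4619 and 2989 in P20 WT libraries, and these overlapped (log2 fold change -0.58, SE 0.23, limma adjusted p = 0.392). Groups without overlap were found for 4 of 5 members, against 16.4% of the genes tested. The family's summed level per kb was 2797 ± 273 in P20 Smo* cells and 3114 ± 396 in P20 WT cells (SD, n = 3 each). Sfrp2 held the largest share of it in both, with 39.2% ± 7.51 in P20 Smo* cells and 52.4% ± 6.77 in P20 WT cells.

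The difference between the log2 fold changes of Smo* over WT at P28 and at P20 was then tested itself, in 1 limma fit of all 12 libraries. At P28 that fold change holds stage as well as genotype. Sfrp1 and Frzb differed between ages, both with a more negative log2 fold change of Smo* over WT at P28 than at P20. They are 2 of 5 members, where 4.72% of the 14790 genes tested were called, 2.83% in this direction and 1.89% in the other. For Sfrp1 the difference of log2 fold changes was -3.62 (SE 0.28, limma adjusted p = 7.96e-05). For Frzb, with log2 fold changes of -2.0 at P28 (not called) and 1.45 at P20, it was -3.45 (SE 0.68, limma adjusted p = 0.0160). Without P28 Smo* replicate 3 the values were -3.36 for Sfrp1 and -2.69 for Frzb, and both passed. In all 12 fits with 1 library left out both passed as well.

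The other 3 members gave no call for the difference between ages. That of Sfrp4 was 1.55 (SE 0.42, limma adjusted p = 0.0573). It passed in 3 of 20 alternatives: without P28 Smo* replicate 2 (limma adjusted p = 0.0383) or P28 WT replicate 1 (limma adjusted p = 0.00618) and with DESeq2 (adjusted p = 0.0131). That of Sfrp5 was 2.55 (SE 0.88, limma adjusted p = 0.115). It passed in 2 of 20 alternatives: without P20 WT replicate 1, at 3.45 (limma adjusted p = 0.00766), and with DESeq2 (adjusted p = 0.0202). For Sfrp2 the difference was -0.60 (SE 0.36, limma adjusted p = 0.361).

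**Figure D3:**
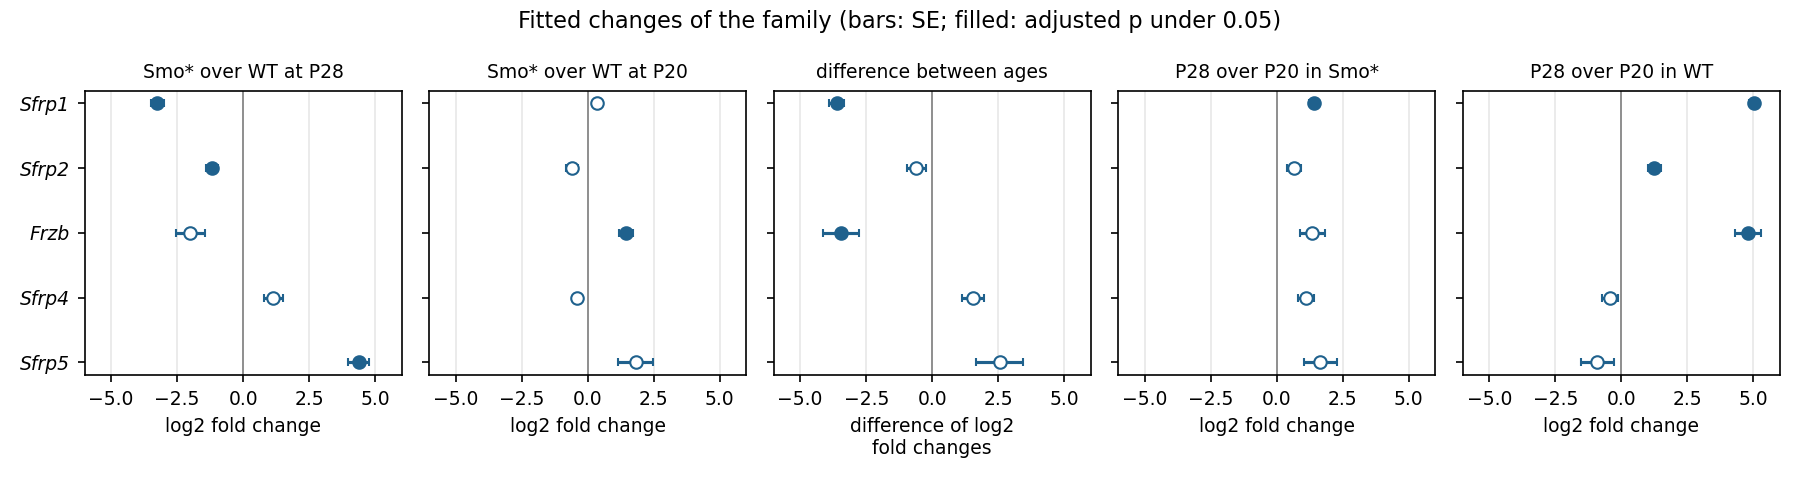
Fitted log2 fold change of each Sfrp gene in the 5 comparisons (the middle panel shows a difference of log2 fold changes), with bars of 1 SE and filled points where the limma adjusted p is under 0.05. Sfrp1 is filled in 4 panels, lies at -3.25 for Smo* over WT at P28 and at 5.03 for P28 over P20 in WT, and Sfrp5 is filled only for Smo* over WT at P28.

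In WT cells, 3 members were higher at P28 than at P20, and none was called lower. The 12-library fit called 25.4% of the 14790 genes tested, 13.5% higher, and 45.1% had groups without overlap, as did these 3 members. Sfrp1 averaged 81196 ± 10562 normalized counts in P28 WT cells and 2476 ± 277 in P20 WT cells (SD, n = 3 each), a log2 fold change of 5.03 (SE 0.20, limma adjusted p = 1.81e-08). Frzb averaged 6439 ± 409 in P28 WT cells and 237 ± 65.7 in P20 WT cells (log2 fold change 4.80, SE 0.48, limma adjusted p = 3.91e-05). Sfrp2 averaged 8459 ± 2262 in P28 WT cells and 3549 ± 928 in P20 WT cells (log2 fold change 1.25, SE 0.26, limma adjusted p = 0.00398). Sfrp4 (-0.43, limma adjusted p = 0.325) and Sfrp5 (-0.91, limma adjusted p = 0.318) did not pass. Their log2 fold changes were called without P28 WT replicate 1 for Sfrp4 (-0.84, limma adjusted p = 0.0200) and without P20 WT replicate 1 for Sfrp5 (-1.80, limma adjusted p = 0.0104).

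In Smo* cells, Sfrp1 was the only member called between the ages, and all 5 log2 fold changes were positive. The fit called 3.46% of the genes tested, 1.98% higher, and 24.4% had groups without overlap, against 3 of 5 members. Sfrp1 averaged 8750.4 ± 2554 normalized counts in P28 Smo* cells and 3187 ± 369 in P20 Smo* cells (SD, n = 3 each), a log2 fold change of 1.42 (SE 0.20, limma adjusted p = 0.00549). The values were 1.12 for Sfrp4 (SE 0.30, limma adjusted p = 0.0586), 1.64 for Sfrp5 (SE 0.62, limma adjusted p = 0.144), 1.35 for Frzb (SE 0.48, limma adjusted p = 0.127) and 0.65 for Sfrp2 (SE 0.26, limma adjusted p = 0.156). The value of Frzb was lowered by P28 Smo* replicate 3: without this library the log2 fold change was 2.10 and passed (limma adjusted p = 0.000452). With DESeq2 on the recovered reads, Frzb (adjusted p = 0.0214) and Sfrp4 (adjusted p = 0.00484) passed too. Both stage comparisons share libraries with those between genotypes, so they are not independent of them.

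The order of the groups differed from member to member. Sfrp1 was highest in P28 WT cells, then in P28 Smo*, P20 Smo* and P20 WT cells, with no overlap between neighbours, although the last step was only 1.29 times. Frzb had the same order, and its P28 Smo* libraries overlapped those of P20 Smo*. Sfrp2 was highest in P28 WT cells, and the other groups overlapped their neighbours, with means of 3733 ± 872 in P28 Smo*, 3549 ± 928 in P20 WT and 2386 ± 677 in P20 Smo* cells. Sfrp4 was highest in P28 Smo* cells, at 5243 ± 1739, and the next groups, P20 WT, P28 WT and P20 Smo*, overlapped their neighbours. Sfrp5 was highest in P28 Smo* cells, at 1243 ± 379, followed by P20 Smo* cells at 385 ± 39.5 and P20 WT cells at 149.6 ± 116, which overlapped P28 WT cells at 62.5 ± 28.9. Between members, the per-kb level was lowest for Sfrp5 in P28 WT cells, at 32.9 ± 15.2, and for Frzb in P20 WT cells, at 73.1 ± 20.3, where Sfrp5 stood close to it at 78.7 ± 61.0.

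Leaving out single libraries moved the members to different degrees. Over the 6 such fits at P28, the log2 fold change lay between -3.43 and -3.00 for Sfrp1 and between 3.93 and 4.67 for Sfrp5, and both passed in all 6. It lay between -1.33 and -0.97 for Sfrp2 and between 0.88 and 1.55 for Sfrp4. The range of Frzb was the widest, from -2.52 to -1.25.

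**Figure D4:**
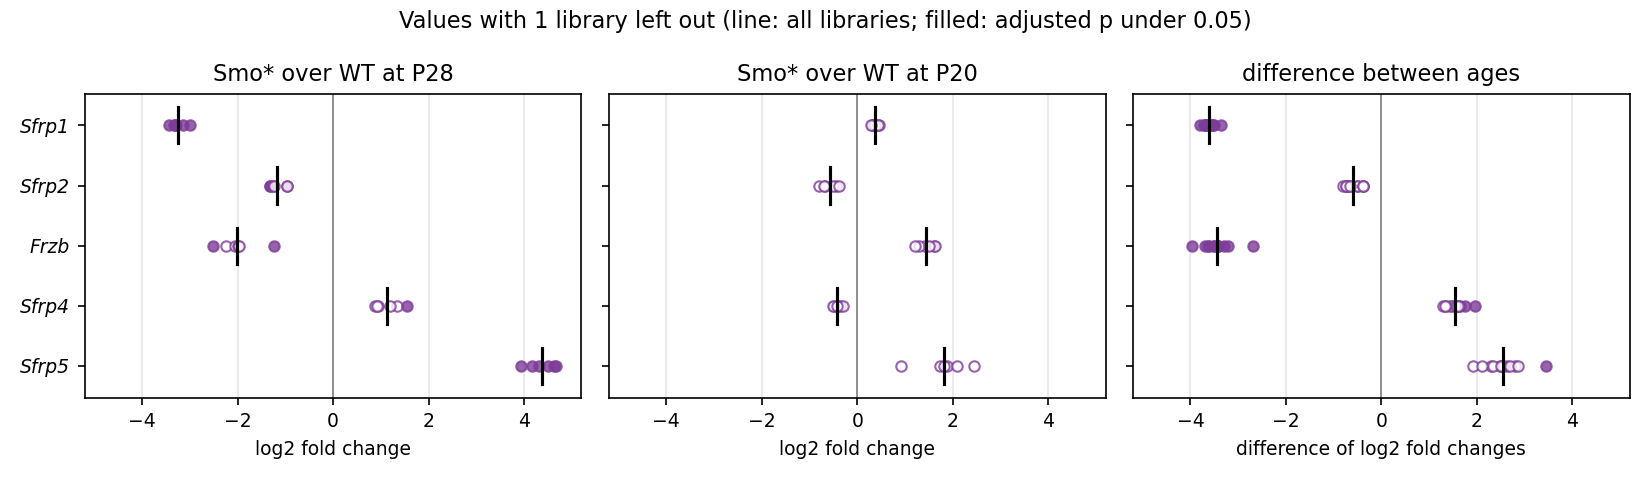
Log2 fold change of each Sfrp gene with 1 library left out at a time (points, filled where the limma adjusted p is under 0.05) beside the value from all libraries (black line), for Smo* over WT at P28, Smo* over WT at P20 and the difference between ages. Sfrp1 points stay between -3.43 and -3.00 at P28, the Sfrp5 points at P20 spread from 0.92 to 2.45, and the Frzb points at P28 spread from -2.52 to -1.25.

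The genes whose level followed each member most closely were sought among 12047 genes with a mean of at least 50, by Pearson's r of log2(value + 1) over the 12 libraries. These are descriptions over 4 groups that share age and stage, not tests. For Sfrp1 they were Pgm1, a phosphoglucomutase (r = 0.986), Corin, a membrane serine protease that marks the dermal papilla (r = 0.985), and Cntn1, a neural adhesion molecule (r = 0.984). For Frzb they were Scube3, a secreted protein (r = 0.993), Pygo1, a nuclear partner of beta-catenin complexes (r = 0.990), and Ptprz1, a receptor phosphatase (r = 0.989). For Sfrp5 they were Cdh5, the cadherin of endothelial junctions (r = 0.981), Cldn1, a tight junction protein (r = 0.976), and Tenm2, a teneurin (r = 0.966). For Sfrp2 they were Arrdc4 (r = 0.942), Tmem126b (r = 0.939) and Pigyl (r = 0.930). For Sfrp4 they were Snx18 (r = 0.939), the matrix metalloproteinase Mmp3 (r = 0.938) and F3, the tissue factor of blood clotting (r = 0.921).

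Other secreted Wnt inhibitors moved in both directions at P28. Of all genes tested, 4.05% were called higher and 4.85% lower at P28, and 0.485% higher and 0.212% lower at P20. Of 8 tested, 2 were called higher in Smo* cells and 1 lower, with a median log2 fold change of -0.59, against -0.01 over all genes tested. Sost, an inhibitor of Lrp co-receptors known from bone, averaged 89.3 ± 26.8 normalized counts in P28 Smo* cells and 2.46 ± 1.14 in P28 WT cells (log2 fold change 4.73, limma adjusted p = 0.00279). WT cells held few reads of Sost. Its size ran from 3.45 to 5.14 over 15 alternatives, and from 4.43 to 4.94 with 1 library left out. Igfbp4, an IGF-binding protein that can also inhibit Wnt signalling, averaged 62641 ± 2304 in P28 Smo* cells and 29958 ± 4510 in P28 WT cells (1.07, limma adjusted p = 0.00928), a call that ended without P28 WT replicate 2 (adjusted p = 0.0583). Dkk2, a Dickkopf protein, averaged 1962 ± 75.9 in P28 Smo* cells and 3705 ± 432 in P28 WT cells (-0.91, limma adjusted p = 0.00351). At P20, Igfbp4 was the 1 gene called of the 8, with 35674 ± 5056 in P20 Smo* cells and 5877 ± 1439 in P20 WT cells (2.62, limma adjusted p = 0.00235). Of the 7 membrane-bound inhibitors tested, 2 were called higher at P28, among them Shisa3 (4.74), and 2 lower, Apcdd1 (-1.39) and Shisa2 (-2.17). At P20 Shisa3 was the 1 called (2.53), a call that ended without P20 Smo* replicate 2 or P20 WT replicate 2 (limma adjusted p = 0.0649 and 0.0783).

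The proteins that Sfrps bind, and the readout of the pathway, were counted in the same fits. Those fits called 4.05% of all genes tested higher and 4.85% lower at P28, and 0.485% higher and 0.212% lower at P20. Of 12 Wnt ligands tested at P28, 3 were called higher, among them Wnt6 (log2 fold change 2.04) and Wnt16 (2.10), and 1 was called lower. At P20 limma and edgeR called none of the 12 and DESeq2 called 3, while 5 lay under 0.05 by limma's unadjusted p. Of 16 Frizzled receptors and co-receptors, 2 were called lower at P28, Fzd1 (-1.08) and Ptk7 (-1.18). At P20 limma, edgeR and DESeq2 called none of the 16, and 3 had an unadjusted limma p under 0.05. Of the 7 R-spondins and Lgr receptors, which raise Wnt signalling, Rspo4 (-5.54) and Rspo1 (-1.59) were among 2 called lower and Lgr6 (2.12) among 2 called higher at P28. At P20 Lgr4 (0.91) and Lgr6 (1.88) were called higher. The Lgr4 call ended without P20 Smo* replicate 2 or P20 WT replicate 2, and that of Lgr6 without P20 Smo* replicate 1 or P20 WT replicate 1 or 2 (highest limma adjusted p = 0.0783 and 0.110). Of 10 target genes of beta-catenin, 5 were called lower at P28 and none higher, among them Axin2 (-1.46), Lef1 (-1.99) and Bambi (-2.27), with a median log2 fold change of -0.80. These 3 calls ended without P28 WT replicate 2 (limma adjusted p = 0.0517, 0.0522 and 0.0637), and those of Axin2 and Bambi also without P28 WT replicate 3 (0.0534 and 0.0580). At P20 the same 3 tools called none of the 10, of which 2 had an unadjusted limma p under 0.05, and the median was -0.05.

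Proteins that share a domain with the Sfrps were called at P28 as 1 of 8 and 1 of 10, near the 8.90% of all genes tested. Of 8 proteins outside the Frizzled and Sfrp families with a frizzled-type cysteine-rich domain, Corin was the 1 called lower at P28 and none was called higher. Corin averaged 4252 ± 3554 normalized counts in P28 Smo* cells and 73141 ± 5785 in P28 WT cells (log2 fold change -4.65, limma adjusted p = 0.00795). Of 10 proteins with a netrin-type domain, Ntn1, the guidance protein netrin-1, was the 1 called at P28 (0.96, limma adjusted p = 0.0290), a call that ended without P28 Smo* replicate 1 and without any P28 WT library (highest limma adjusted p = 0.112). None of 3 tolloid proteinases was called at P28 by limma, edgeR or DESeq2, and 0 had an unadjusted limma p under 0.05. At P20 limma and edgeR called none of these 3 lists, while 3 of 8, 3 of 10 and 2 of 3 genes had an unadjusted limma p under 0.05 and DESeq2 called 2, 1 and 1.

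In WT cells, called genes of the same lists between P28 and P20 went in both directions. Of all 14790 genes tested, 13.5% were called higher at P28 and 11.9% lower. Of the 8 other secreted inhibitors, 3 were called higher at P28, among them Wif1 (log2 fold change 4.48) and Igfbp4 (2.37), and 2 lower, among them Dkk2 (-1.71). All 7 R-spondins and Lgr receptors were called, 5 higher, among them Rspo4 (6.18) and Rspo1 (2.38), and 2 lower, among them Lgr6 (-2.72). Of 13 Wnt ligands tested, 2 were called higher, among them Wnt5b (1.52), and 5 lower, among them Wnt10a (-6.32) and Wnt6 (-4.12). In Smo* cells, 1.98% of all genes tested were called higher at P28 and 1.47% lower. Of the 8 secreted inhibitors, 1 was called higher at P28 in Smo* cells, Igfbp4 (0.82), and 1 lower, Dkk2 (-1.80). The Igfbp4 call ended in 4 of 6 fits with 1 library left out, all but those without P20 Smo* replicate 2 or P28 Smo* replicate 3 (highest limma adjusted p = 0.115). Of the ligands, none was called higher and 2 lower, among them Wnt10a (-3.67).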

How the data were processed

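Total RNA of sorted cells was depleted of ribosomal RNA and made into directional libraries, per the labels' protocols. The submitters' processing notes name DESeq2, HTSeq, TopHat2 (version 2) and Trimmomatic, and as builds GRCm38.p4 and mm10. Strand use in counting is not stated. The authors deposited 2 tables, 1 per age, of normalized counts (unit: signal) for 25887 genes. The deposited values were whole multiples of 1 step per library (100% of values within 0.01 reads), so whole reads were recovered, and the deposited mean column equals the mean over all 12 libraries, so both tables were normalized together. Further deposited columns are the authors' log2 fold change (WT over Smo*, turned round here where it is quoted), a test statistic (a score), a p-value and an adjusted p-value. In all, 0 columns of per-sample values were unused. Symbols came from GENCODE M21, which named 25562 identifiers.

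Genes were kept where their mean reached 10, and log2(value + 1) was tested with limma 3.58.1 (R 4.3.3, eBayes with trend), adjusted by Benjamini-Hochberg over all genes tested. Each age was fitted on its own 6 libraries, and the difference between ages and the stage comparisons in 1 fit of all 12. Fold changes on the log2(value + 1) scale understate those of low genes. Errors are SD for means and limma's moderated SE for fold changes. For a single value, the smallest p of an exact permutation test, 3 libraries against 3, is 0.1. Levels were compared between members per kb of exonic length. The fits were tested on simulated counts.

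Alternatives were TMM scaling, quantile normalization, pseudocounts of 0.5 and 5, no filter, a minimum mean of 50, limma over the 12 libraries together, count tests of the recovered reads with edgeR 4.0.16 (quasi-likelihood) or DESeq2 1.42.0, the authors' deposited calls and leaving out each library. On the recovered reads edgeR called 1336 genes at P28 and 93 at P20. The members, gene lists and marker lists were chosen with earlier results of these data known. Genes named were the 5 members, Smo, Gli1, Ptch1 and Hhip, called genes among the 3 with the smallest adjusted p of each list in a comparison, and the 3 genes most like each member. Cdh5 and Pecam1, named for their calls at P28, are also given at P20. Replicates are numbered in accession order only.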

Additional observations from a re-analysis of the deposited data

Results flagged for a closer look

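The log2 fold change of Smo* over WT differed between P28 and P20, by the interaction term of the 12-library limma fit, for 2 members. It also differed for further genes of the lists used, of which 6 are given here. The difference of log2 fold changes (P28 minus P20) was -3.62 for Sfrp1 and -3.45 for Frzb. Among the other genes it was -5.32 for Corin, -4.93 for the R-spondin Rspo4, -1.27 for the receptor Fzd1, -1.70 for the beta-catenin target Axin2, -1.55 for Igfbp4 and -4.26 for the Hedgehog target Hhip. Igfbp4 was called higher in Smo* cells at both ages, with log2 fold changes of 1.07 at P28 and 2.62 at P20. The call of Axin2 ended in 5 of 12 fits with 1 library left out, and those of the other 7 genes given held in all 12. The labelled stage differs with genotype at P28 and not at P20, and the P28 mice were males and the P20 mice females. Genotype, stage, age and sex thus cannot be told apart in these values. No formal test for outlying libraries was run on groups of 3. P28 Smo* replicate 3 was singled out by its genes with a read and its correlations with its replicates.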

How the results depend on the processing

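No value of a member reversed its sign under an alternative, and of the other named genes 1 value did, that of Hhip at P28, with -0.73 from all libraries, which ran from -1.23 to 0.00239 with 1 library left out and was positive without P28 Smo* replicate 3. Of 400 values of the members, 371 kept their side of the threshold, 18 gained a call and 11 lost one, and of 915 values of other named genes 856 kept theirs, 9 gained and 49 lost one. With DESeq2 on the recovered reads, 2296 genes were called for Smo* over WT at P28 (1313 in the fit reported), 480 at P20 (102), 1482 for the difference between ages (698) and 1615 for P28 over P20 in Smo* (511), and it called 4 members for the difference between ages and 3 for P28 over P20 in Smo*. Limma on all 12 libraries called 2058 genes and 5 members at P28, and the authors' deposited table called 2880 genes and 5 members at P28 and 342 genes at P20. At P20, 0 members were called under quantile normalization, a mean of at least 50, limma on all 12 libraries and the authors' deposited table, where the unadjusted p of Frzb was 0.0138. With 1 library left out, the calls ran from 461 to 1619 genes at P28, 8 to 129 at P20, 254 to 922 for the difference between ages, 49 to 1049 for P28 over P20 in Smo* and 2336 to 3139 for P28 over P20 in WT. The members called ran from 2 to 4 at P28, 0 to 1 at P20, 2 to 3 for the difference between ages, 1 to 2 for P28 over P20 in Smo* and 3 to 4 for P28 over P20 in WT. Of the genes called at P20, 69.6% were higher, but 53.5% under DESeq2, and 31.8% without P20 Smo* replicate 1 to 87.5% without P20 WT replicate 2. For P28 over P20 in Smo* 57.3% were higher, but 46.8% under quantile normalization, and 34.7% without P28 Smo* replicate 1 to 69.7% without P28 Smo* replicate 3. With 1 library left out the share ran from 38.1% to 50.03% at P28 (45.5% with all) and from 27.9% to 48.4% for the difference between ages (40.0%). The cause of these shifts was not tested. No paired analysis was made because the labels give no replicate numbers that groups share. The sample titles carry numbers whose meaning is not given, and some are consecutive across genotypes of the same age. Whether such libraries were paired or handled together is not known. Depth limits Sfrp5 in WT cells at both ages, where its lowest library held 26 reads at P28 and 27 at P20.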
